A study of Mus musculus with 10 samples.

Results

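The MMTR KD line of mouse embryonic stem cells was followed over 3 days without leukemia inhibitory factor (LIF). Its 2 arrays, d3 and d0, were chosen by their labels out of the 10 arrays of the series, and the comparison asked which transcripts were higher or lower after LIF had been taken away. The cells were G-CCE, a line of the CCE mouse embryonic stem cells (mESCs), grown in serum without feeder cells. The MMTR KD cells carried the lentivirus pLV-TH-MMTR/Dmap1_shRNA, which makes a short hairpin RNA against MMTR/Dmap1 (Dmap1, a subunit of the Tip60-p400 chromatin remodelling complex), and the methods describe clones picked for EGFP. At d3 LIF had been absent for 3 days, and at d0 it was present. The methods also describe hanging drops for differentiation, after which the aggregates went into bacterial dishes, so that loss of LIF, aggregation and time in culture cannot be told apart in the change from d0. The 4 other lines, used only as a reference, were untransfected WT cells, MMTR-F (Flag-tagged full-length MMTR from pcDNA3), MMTR-C (the C-terminal part) and MMTR-N (the N-terminal part), each with 1 array at d3 and 1 at d0 under the same 2 conditions. No array with a control hairpin was analysed here, so hairpin, viral vector and choice of clone cannot be told apart in the MMTR KD cells.

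LIF keeps mESCs in the naive state. It binds a receptor made of Lifr and Il6st (gp130), which switches on the transcription factor Stat3, and Stat3 in turn raises its feedback inhibitor Socs3 and naive factors such as Klf4, Tfcp2l1 and Gbx2. When LIF is withdrawn, FGF/ERK signals move the cells towards a primed state like the epiblast of the implanting embryo, marked by Fgf5, Otx2, Pou3f1 and Dnmt3b. Nodal and Wnt signals then open the way to mesendoderm, the source of mesoderm and endoderm, with Mixl1, Evx1 and Fgf8 among its first genes.

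The promoters of Socs3 and Sp5, a Wnt target, are shown because Socs3 was among the largest decreases of the MMTR KD line and Sp5 among its largest increases, and because each holds a site for the factor that its pathway is known to work through. The windows are the 250 bases before a start site in RefSeq (GRCm38.p6), at chr11:117969367-117969616 on the minus strand for Socs3 and chr2:70474673-70474922 on the plus strand for Sp5. The Socs3 window lies inside the span of the gene (117966079 to 117970336), so its start site is an internal one. Capitals mark the STAT motif TTCNNNGAA in Socs3, which starts at position -154 from the start site, and the TCF/LEF motif CTTTGAT in Sp5, which starts at position -104.
Socs3: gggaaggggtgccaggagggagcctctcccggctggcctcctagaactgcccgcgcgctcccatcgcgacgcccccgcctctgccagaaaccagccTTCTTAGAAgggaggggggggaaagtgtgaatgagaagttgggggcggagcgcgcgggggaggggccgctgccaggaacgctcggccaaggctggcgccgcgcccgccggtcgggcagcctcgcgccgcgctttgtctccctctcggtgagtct
Sp5: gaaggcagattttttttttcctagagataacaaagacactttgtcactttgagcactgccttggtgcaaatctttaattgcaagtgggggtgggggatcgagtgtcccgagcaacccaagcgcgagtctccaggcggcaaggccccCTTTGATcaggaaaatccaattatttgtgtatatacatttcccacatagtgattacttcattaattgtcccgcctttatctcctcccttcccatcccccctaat
Searched on both strands, with no overlap between the 2 motifs, the STAT motif was in 2306 of 32851 such promoters (7.02%) and the TCF/LEF motif in 1053 (3.21%). Of the LIF/STAT3 genes listed, 13 matched 19 promoters, of which 2 (10.5%, of Sgk1 and Socs3) held the STAT motif. Of the Wnt targets, 6 matched 11 promoters, of which 1 (9.09%, of Sp5) held the TCF/LEF motif. In 22 promoters matched by the 15 largest increases, the STAT motif was in 1 (Otx2) and the TCF/LEF motif in 2 (Cxcl12 and Sp5). A match is a description of the letters and not a measured site.

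Levels are log2 quantile-normalized signals, and a difference is the log2 level at d3 minus that at d0, so that 1 unit is a doubling. A detection p no higher than 0.05 on 5 or more of the 10 arrays kept 17775 of 45281 probes. Over all probes the median raw signal was 337 to 347 on the d3 arrays and 218 to 244 on the d0 arrays, and 16699 to 17710 probes were detected at d3 against 18152 to 18837 at d0. Any difference in array handling between the days cannot be told apart from the days themselves. In the MMTR KD line, 15190 of the kept probes were detected on both arrays, 712 at d3 only, 1530 at d0 only and 343 on neither. With 1 array a day there is no replicate error, and no difference between d3 and d0 in this line carries a p-value; a change was counted from a difference of 0.5. In whole-culture RNA, fewer cells of a type and less RNA per cell cannot be told apart.

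Dmap1, the target of the hairpin, was at 10.38 at d3 and 10.78 at d0 in the MMTR KD line. WT had 10.42 and 10.59, MMTR-F 10.18 and 10.48, and MMTR-N 10.34 and 10.52, whereas MMTR-C had 12.0 on both days. The libraries labelled MMTR KD therefore had no lower Dmap1 signal than WT at d0 and nearly the same at d3, so the label is used below as a name for the libraries labelled MMTR KD and no direction is drawn from it. The mESC markers matched the label of the cells, since all 9 (Pou5f1, Sox2, Nanog, Sall4, Zfp42, Dppa5a, Utf1, Tdgf1 and L1td1) were detected on both arrays, at 9.25 to 15.32 at d3 and 10.14 to 15.90 at d0. Of 12 fibroblast markers 3 passed the filter, with a log2 summed signal of 10.79 at d3 and 10.23 at d0 (10.82 to 10.99 and 10.25 to 10.74 in the other lines), and of 10 macrophage and blood markers only Csf1r passed, at 8.40 and 8.32. Their part in the changes was not tested.

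In the MMTR KD line 1522 probes (8.56%) were higher and 1424 (8.01%) were lower at d3 by 0.5 or more. Over the 9401 named genes, taking for each the probe with the highest mean signal, 995 (10.6%) were higher and 858 (9.13%) were lower, and these shares are the background for each group of genes below. Among the other lines WT had 1655 probes higher (9.31%) and 1555 lower (8.75%), MMTR-F 1218 (6.85%) and 1155 (6.5%), MMTR-C 1674 (9.42%) and 1557 (8.76%), and MMTR-N 1588 (8.93%) and 1503 (8.46%). Thus the spread of the changes was 0.423 (SD over probes) in MMTR KD against 0.393 to 0.484 in the others. Of the 1522 higher probes, 488 were also higher by 0.5 in all 4 other lines and 250 in none of them. Of the 1424 lower probes, 495 were lower in all 4 other lines and 212 in none.

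The largest increases were those of Fgf5, Kif1a, Cxcl12, Pdpn and Sp5. Fgf5, the growth factor that marks the primed epiblast, was at 12.24 at d3 and 8.88 at d0, a 10.3-fold difference. It was not detected at d0 in any of the 4 other lines (7.98 to 8.18) but was in MMTR KD. Kif1a, a motor of axonal transport, was at 13.71 and 10.81. Cxcl12, a chemokine, was at 10.91 and 8.38, although a second probe for it moved by 0.12 only. Pdpn, a membrane mucin, was at 13.03 and 10.63, and Sp5 at 12.39 and 10.10. Next came Ddit4, an inhibitor of mTOR signalling (10.95 at d3, 8.70 at d0), Vrtn, a factor for vertebral number (10.63, 8.41), Rtl8a (13.32, 11.21), Fgf8 (10.49, 8.41), the SRY-box factor Sox11 (12.01 at d3, a difference of 2.01), Zfp608 (10.47, 8.47), the activin antagonist Fst (10.54, 8.61), the carbonic anhydrase Car4 (11.29, 9.37), the chromatin reader Zmynd8 (13.43, 11.51) and the epiblast factor Otx2 (12.90 at d3, a difference of 1.90). All 15 were between 1.90 and 3.36 higher, and 14 of them were also higher in every other line. The exception was Sp5, which was lower at d3 in WT and MMTR-C.

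**Figure D1:**
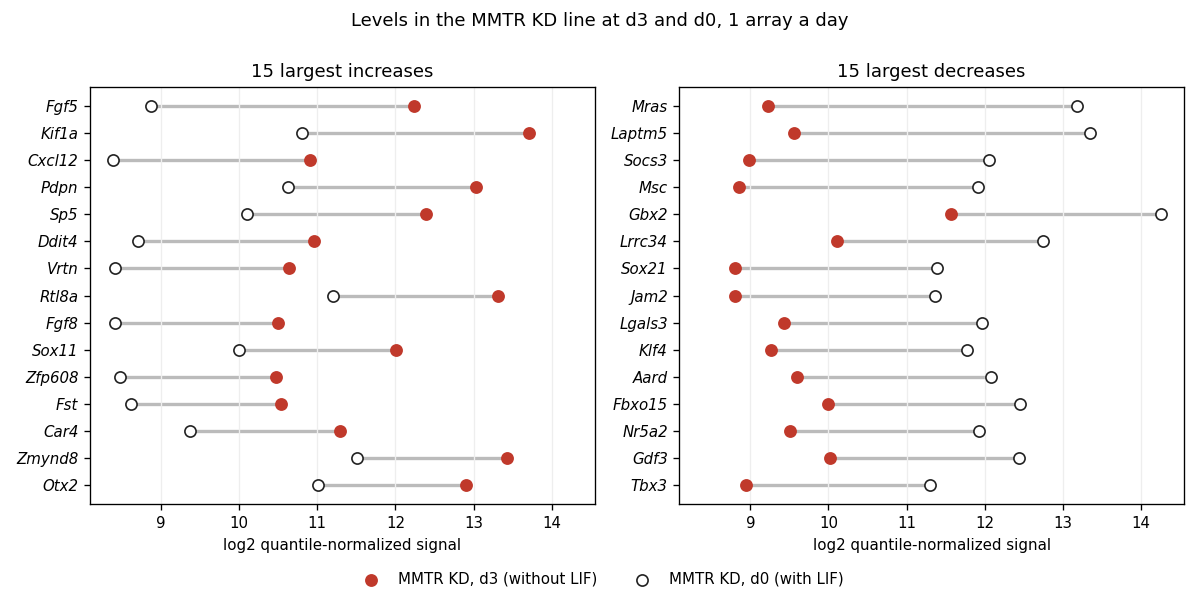
Log2 quantile-normalized signal (horizontal axis) of the 15 genes with the largest increases (left) and the 15 with the largest decreases (right) in the MMTR KD line, d3 as filled and d0 as open circles, 1 array each. The increases span 1.90 to 3.36 and the decreases -3.96 to -2.35 log2 units, with Fgf5 and Mras at the top of each panel.

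The largest decreases reached further than the largest increases. Mras, a Ras-like GTPase, was at 9.22 at d3 and 13.18 at d0, a 15.5-fold difference. Laptm5, a lysosomal membrane protein, was at 9.55 and 13.35, and Socs3, the feedback inhibitor of LIF signalling whose promoter is shown above, was at 8.99 and 12.06. The transcription factor Msc was at 8.85 and 11.92, and the homeobox factor Gbx2, a LIF target, at 11.57 and 14.26. The rest were Lrrc34 (10.11 at d3, 12.74 at d0), Sox21 (8.80, 11.38), the junction protein Jam2 (8.80, 11.37), the galectin Lgals3 (9.42, 11.97), Klf4 (9.27, 11.78), Aard (12.07 at d0, a difference of -2.48), Fbxo15 (9.99, 12.45), Nr5a2 (9.51, 11.93, but -0.01 by another of its probes), Gdf3 (10.02, 12.44) and Tbx3 (8.95, 11.29). All 15 were lower in every line. For genes detected on only 1 of the MMTR KD arrays the difference is a bound, set against the lowest signal of a detected probe. Emp1, an epithelial membrane protein, was at 11.84 at d0 and not well above background at d3 (8.14), at least 11.8-fold lower. Itpka, an inositol kinase, was at least 3.37-fold lower (8.24 at d3, 10.03 at d0) and the endothelial gene Mmrn2 at least 3.12-fold lower (8.09, 9.92). In the other direction the cathepsin Ctsh was at 9.75 at d3 and not well above background at d0 (8.17), at least 2.91-fold higher, and Rn28s1, a ribosomal RNA, was at least 3.03-fold higher (9.81, 8.09).

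The naive and LIF genes were lower as a group. Of 20 naive pluripotency genes 18 were measured, and 14 were lower (77.8%, against 9.13% of all named genes) and 0 higher, with a median of -1.90 against 0.003 over all named genes. Besides Gbx2, Klf4, Fbxo15, Nr5a2 and Tbx3 they included Klf5 (11.10 at d3, 13.32 at d0), the orphan receptor Esrrb (12.82, 15.01), Tfcp2l1 (11.51, 13.63), Zfp42, also known as Rex1 (10.95, 12.88), the kinase cofactor Tcl1 (-1.88) and Klf2 (10.99, 12.73). Nanog, at 13.14 at d3 and 13.39 at d0, Tfe3, Pecam1 and Dppa3 did not pass 0.5. Of 15 LIF/STAT3 genes 14 were measured, 10 were lower and 0 higher, with a median of -1.17. Stat3 itself was at 11.25 at d0 and differed by -1.25 at d3, the kinase Pim3 at 10.87 and 12.80, and Bcl3 (-1.24), Sgk1 (-1.11), Gadd45g (-1.05) and Junb (-0.90) were lower too. Both subunits of the receptor stayed within 0.5, with Lifr at -0.49 and Il6st at 0.11, as did Myc at -0.24. Klf4, Gbx2 and Tfcp2l1 are on both lists, which are therefore not separate evidence.

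Core pluripotency genes moved less. All 14 listed were measured, 10 were lower (71.4%) and 1 was higher, with a median of -0.62. Pou5f1 (Oct4) was at 12.87 at d3 and 13.44 at d0, Sox2 at 9.25 and 10.14, and the Nodal co-receptor Tdgf1 (Cripto) at 9.97 and 10.93. Gdf3, a TGF-beta ligand, and Zfp42 had the largest decreases of the list (-2.42 and -1.93). Sall4 was higher, at 13.39 and 12.55, but its other probe changed by -0.55. Utf1 was at 11.97 and 12.43.

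Primed epiblast genes were higher as a group. Of 17 listed 14 were measured, 11 were higher (78.6%, against 10.6% of all named genes) and 1 was lower, with a median of 1.39. After Fgf5, Sox11, Car4 and Otx2 came Sall2 (11.24 at d3, 9.45 at d0), the claudin Cldn6 (12.28, 10.49), the de novo DNA methyltransferase Dnmt3b (15.51, 14.09), the POU factor Pou3f1 (11.59, 10.24), Tead2 (1.28), Sox4 (1.00) and Grhl2 (0.62). The exception was Etv4, an ETS factor downstream of FGF/ERK, at 9.43 at d3 and 11.44 at d0. In the other lines it changed by -1.31 to -0.83. Among the other FGF/ERK genes, 3 of 13 measured were higher and 3 lower, Mras and Etv4 included. The ERK phosphatases Dusp4 (11.30, 9.74) and Dusp6 (12.95, 12.43, but -0.39 by another probe) and the receptor Fgfr2 (11.14, 10.44) were higher, and the inhibitor Spred1 (10.32, 11.01) was lower.

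Genes of the Nodal and Wnt pathways were mostly higher where they moved. Of 14 Nodal genes measured 5 were higher and 2 lower. The ligand Nodal was at 11.32 at d3 and 10.58 at d0, and the receptor Acvr2b at 12.42 and 11.73. The Smad partner Foxh1 was at 9.19 and 8.59 (0.26 by its other probe), and the feedback gene Skil at 13.08 and 12.28 (0.07 by its other probe). The lower genes were Tdgf1 and the proprotein convertase Pcsk6, at 10.15 and 11.38, while the inhibitors Lefty1 (0.47) and Lefty2 (-0.16) did not pass 0.5. Of 7 Wnt genes measured, out of 15 listed, 2 were higher and 0 lower. Axin2, the feedback inhibitor of Wnt signalling, was at 11.04 at d3 and 9.32 at d0, and Sp5 was the other. The factors Lef1 (0.40), Tcf7l1 (0.31) and Tcf7l2 (0.12) and beta-catenin itself, Ctnnb1 (0.11), stayed within 0.5. Bmp4, a ligand that keeps mESCs undifferentiated together with LIF, was at 9.23 and 11.54, with Id3 at 9.57 and 8.88.

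Only 3 of 16 mesendoderm and mesoderm genes passed the filter. Evx1, a homeobox factor of the primitive streak, was at 10.68 at d3 and 8.78 at d0. Fgf8 was at 10.49 and 8.41, and Mixl1, a homeobox factor of mesendoderm, at 9.14 and 8.28. Mixl1 was detected on 6 arrays, the MMTR KD pair included, and passed the filter only with that pair, so the 3 genes are given as values and not as a group. In neuroectoderm genes, 3 of 6 measured were higher (Kif1a, Nrcam at 9.27 and 8.23, and Map2 at 9.85 and 8.88) and 2 lower (Stmn2 at 11.46 and 12.55, and Ncam1, at 9.20 at d0 and not well above background at d3). Nes was at 8.76 and 8.73, and Sox1, Pax6, Zic1 and Tubb3 were not measured here. Primitive and visceral endoderm genes had 1 of 11 measured higher (Apoe) and 4 lower, namely the laminins Lama1 (10.58 at d3, 12.08 at d0) and Lamc1 (12.06, 13.10), the factor Sox7 (8.81, 9.67, but 0.34 by another probe) and the collagen Col4a1 (11.03, 11.56). Of 12 trophectoderm genes listed 5 were measured, 1 higher and 3 lower, and Cdx2, Eomes, Elf5, Gata3, Hand1 and Krt7 were not measured. Germline genes had 0 of 10 higher and 3 lower, with Mov10, an RNA helicase, at 8.66 and 9.74.

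Glycolytic and sterol genes were higher in larger shares than all named genes. Of 20 glycolysis and hypoxia genes measured 12 were higher and 1 lower, with a median of 0.65. They included the oxygen sensor Egln3 (10.90 at d3, 9.34 at d0), the pyruvate dehydrogenase kinase Pdk1 (11.81, 10.80, 0.22 by its other probe), the aldolases Aldoa (13.54, 12.57) and Aldoc (10.18, 9.41), the phosphofructokinase Pfkl (13.73, 12.93, 0.16 by its other probe) and the lactate dehydrogenase Ldha (15.40, 14.66). The phosphofructokinase Pfkp went the other way (-0.54). In oxidative phosphorylation, 0 of 24 were higher and 2 lower, with a median of -0.27. The lower genes were the ATP synthase subunit Atp5a1 (11.79, 12.79), for which a second probe was higher by 0.39, and Ndufb5 of complex I (9.95, 10.56). Of 17 cholesterol genes 7 were higher and 1 lower, with the sterol enzymes Msmo1 (12.04, 10.33), Sqle (13.25, 11.86) and Cyp51 (11.12, 9.90) leading. Among stress genes Ddit4 stood at the top, while the amino acid enzymes Psat1 (12.87, 13.50) and Asns (12.45, 13.03) and the glutathione-degrading Chac1 (10.55, 11.18) were lower.

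Counts for the Tip60-p400 and Polycomb complexes are set beside all named genes, of which 10.6% were higher and 9.13% lower. Of 19 Tip60-p400 genes measured 1 was higher (5.26%), and 0 were lower, with a median of -0.21. The higher gene was Yeats4, at 12.68 at d3 and 12.13 at d0 (0.00 by its other probe). Of 28 Polycomb genes 4 were higher (14.3%) by 0.53 to 0.76 and 1 was lower (3.57%). The higher genes were Bcor, Pcgf6 and Kdm2b of PRC1 and Rbbp7 of PRC2, with another Kdm2b probe at -0.17. The lower gene was Epop, a PRC2 partner of mESCs, at 12.74 and 13.73. Of 13 DNA methylation genes measured 3 were higher (23.1%) and 3 lower (23.1%). Dnmt3b, the methyl-CpG binding protein Mbd2 (9.86, 9.03) and Gadd45a (11.43, 10.85, 0.10 by its other probe) were higher, whereas the dioxygenase Tet1 (11.70, 13.33), the Dnmt3 cofactor Dnmt3l (11.74, 12.85) and the corepressor Trim28 (14.47, 15.11) were lower. Of 23 G1/S genes 1 was higher (4.35%) and 2 lower (8.7%), and of 13 G2/M genes 0 were higher and 2 lower (15.4%). Most genes of both lists were within 0.5, as were most of all named genes. The cyclin Ccnd3 was at 11.73 at d3 and 13.43 at d0 and the inhibitor Cdkn1c, an imprinted gene, at 11.06 and 12.84, and Cdk1 was at 11.87 and 12.44. Of 15 p53 response genes 5 were higher and 0 lower, led by Trp53inp1 (12.90, 11.78) and Cdkn1a, p21 (11.36, 10.47). Other probes of the higher genes Trp53inp1 (0.45), Pmaip1 (0.21), Bbc3 (-0.05) and Gadd45a (0.10) stayed under 0.5. Cdkn1a was past 0.5 by all its probes (0.81 to 1.29), and Ccng1, at 0.49, was higher by 0.77 by another probe. The imprinted growth factor Igf2 was at 10.41 and 11.23.

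Genes of the cell surface, matrix and lysosome moved both ways. Of 25 matrix and integrin genes measured 3 were higher and 10 lower, among them the protease inhibitor Timp1 (9.31 at d3, 10.58 at d0) and perlecan, Hspg2 (10.94, 12.01), against the gelatinase Mmp2 (10.82, 9.69) and the integrin Itgb5 (10.55, 9.43). Of 25 annexin, S100, keratin and actin genes 4 were higher and 6 lower, with Lgals3, the actin-binding Tmsb4x (11.98, 13.31) and vimentin, Vim (9.36, 10.45), lowest. Of 22 lysosomal genes 8 were higher and 2 lower, Laptm5 and the mannosidase Manba. The interferon-induced membrane genes Ifitm1 (11.27, 13.09), Ifitm2 (11.74, 12.88) and Ifitm3 (11.88, 13.26) were lower while the class I gene H2-D1 (10.81, 9.51), B2m (11.61, 10.80) and Irf1 (12.38, 11.37, but 0.07 by another probe) were higher. The junction genes Cldn6 and Gja1 (13.80, 12.58) were higher and the adhesion receptor Icam1 (9.50, 10.39) was lower. Of 12 housekeeping genes measured 4 were higher by 0.56 to 0.83 (Rpl13a, B2m, Gusb and Pgk1, with another Gusb probe at -0.10) and 0 lower.

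The changes of the MMTR KD line were set beside those of the 4 other lines. The mean change of the 4 others was tested against 0 with limma, without the MMTR KD arrays, a test chosen after the data were seen. At an adjusted p under 0.05, 3611 probes (20.3%) rose and 3754 (21.1%) fell in them. In MMTR KD, 3446 of the 3611 (95.4%) were above 0 and 3575 of the 3754 (95.2%) below 0, with medians of 0.385 and -0.376 against 0.399 and -0.386 in the other lines. When each other line was set against its own 4 counterparts in the same way, these shares were 92.8% to 96.5% and 94.4% to 97.1%, so that MMTR KD lay inside the range of the lines. Across all kept probes, which are not independent replicates and share the normalization, its changes had a Pearson r of 0.780 with WT, 0.807 with MMTR-F, 0.805 with MMTR-C and 0.780 with MMTR-N.

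**Figure D2:**
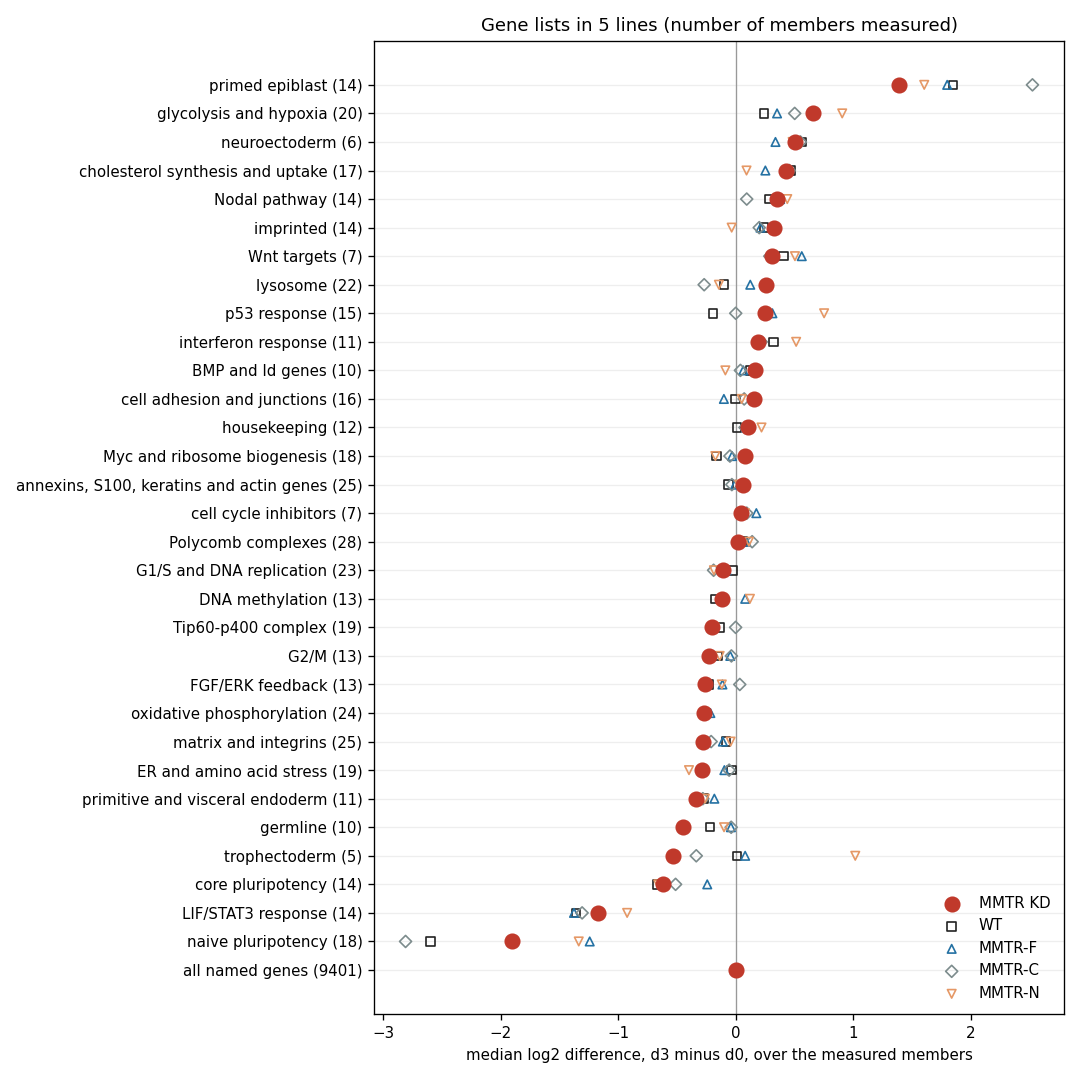
Median log2 difference, d3 minus d0 (horizontal axis), over the measured members of each gene list with at least 5 members measured, with MMTR KD as filled circles and the other 4 lines as open symbols, 1 difference per line. MMTR KD lies between MMTR-C and WT on one side and MMTR-N and MMTR-F on the other for naive genes (-1.90) and below all 4 for primed epiblast genes (1.39).

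By the list median, the decrease of the naive genes in MMTR KD was intermediate among the lines, a description of single differences without a test. The median change of the naive list was -1.90 in MMTR KD, and -2.60, -1.24, -2.81 and -1.34 in WT, MMTR-F, MMTR-C and MMTR-N. Esrrb had the same order, with -2.19 in MMTR KD and -3.07, -1.47, -3.38 and -1.88 in those 4 lines. Klf2 had it too, with -1.74 in MMTR KD, -3.09 in MMTR-C and -0.79 in MMTR-F. Klf4 did not: it changed by -2.51 in MMTR KD and by -3.27 to -3.16 in the 4 other lines (WT not well above background at d3), and the MMTR KD level of 9.27 at d3 was the highest of the d3 arrays (8.19 to 9.09 in the others). Gbx2, Nanog and Manba of the naive list also fell least in MMTR KD. Gbx2 changed by -2.69 there (-3.73 to -2.79 in the others), Nanog by -0.25 (-1.38 to -0.65) and Manba by -1.29 (-2.96 to -1.55). Fbxo15, Klf5, Nr5a2, Tbx3, Tfcp2l1 and Zfp42 lay within the range of the other lines. For the LIF/STAT3 list the medians were -1.17 in MMTR KD against -1.36, -1.38, -1.31 and -0.92 in WT, MMTR-F, MMTR-C and MMTR-N. The primed list had its smallest median in MMTR KD, 1.39 against 1.85, 1.80, 2.52 and 1.60. Pou3f1 was an example, higher by 1.35 in MMTR KD and by 1.85 to 3.59 in the others. It was at 11.59 at d3 in MMTR KD (10.47 to 12.35 in the others) and at 10.24 at d0 (8.62 to 9.27), so that its d0 level was above that of all 4 other lines.

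The changes of Sp5, Nodal and Lefty1 differed in sign between the lines. Sp5 was at 12.39 at d3 and 10.10 at d0 in MMTR KD. It was at 8.01 and 9.39 in WT and at 8.32 and 8.97 in MMTR-C, but at 10.35 and 8.71 in MMTR-F and at 11.91 and 8.50 in MMTR-N. MMTR KD had the highest level of the 5 lines on each day, and its change of 2.29 lay between those of MMTR-N (3.41) and MMTR-F (1.64), with MMTR-C at -0.65. In WT Sp5 was not well above background at d3, so that its change there (-1.38 as measured) is a bound of at most -1.15. Nodal was likewise higher by 0.74 in MMTR KD, 1.10 in MMTR-F and 1.24 in MMTR-N, against -1.29 in WT and -0.08 in MMTR-C. Lefty1 changed by 0.47 in MMTR KD, 1.64 in MMTR-F and 1.35 in MMTR-N, against -2.24 in WT and -0.77 in MMTR-C. Other Nodal genes had 1 sign in all 5 lines, positive for Acvr2b, Foxh1 and Skil and negative for Tdgf1 and Pcsk6.

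The change of MMTR KD was then tested against the mean change of the 4 other lines with limma, a fit of 5 differences with 3 residual degrees of freedom in which the lone MMTR KD difference is assumed to vary like the others and their spread holds real differences between constructs. No probe was called at an adjusted p under 0.05 (0 of 17775, 0.0%), and 882 (4.96%) had an unadjusted p under 0.05. In simulated data of the same 17775 probes, shifts of 0.5, 1 and 2 were planted in 72, 63 and 65 probes, and the fit called 0%, 41.3% and 89.2% of them. Each probe varied there by its SD over the 4 other lines, and the planted shifts themselves ease the adjusted threshold. These shares therefore cannot be carried over to the arrays, where a difference of 2.06 (Evx1) was not called. Shifts of 0.5 were not detectable even in the simulated data. Fits against WT and MMTR-C alone and against MMTR-F and MMTR-N alone had 1 residual degree of freedom. The paper's principal component analysis pairs the same lines at d3 from these arrays. The pairs are therefore not independent of the data, and no result is drawn from these fits. Counted without a test, the change in MMTR KD was at least 0.5 above that of every other line for 59 probes and at least 0.5 below for 53, together 0.63% of the kept probes. The same count for the other lines ran from 0.422% in MMTR-F to 0.979% in MMTR-N, with WT at 0.636%, so that MMTR KD did not stand apart in number.

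**Figure D3:**
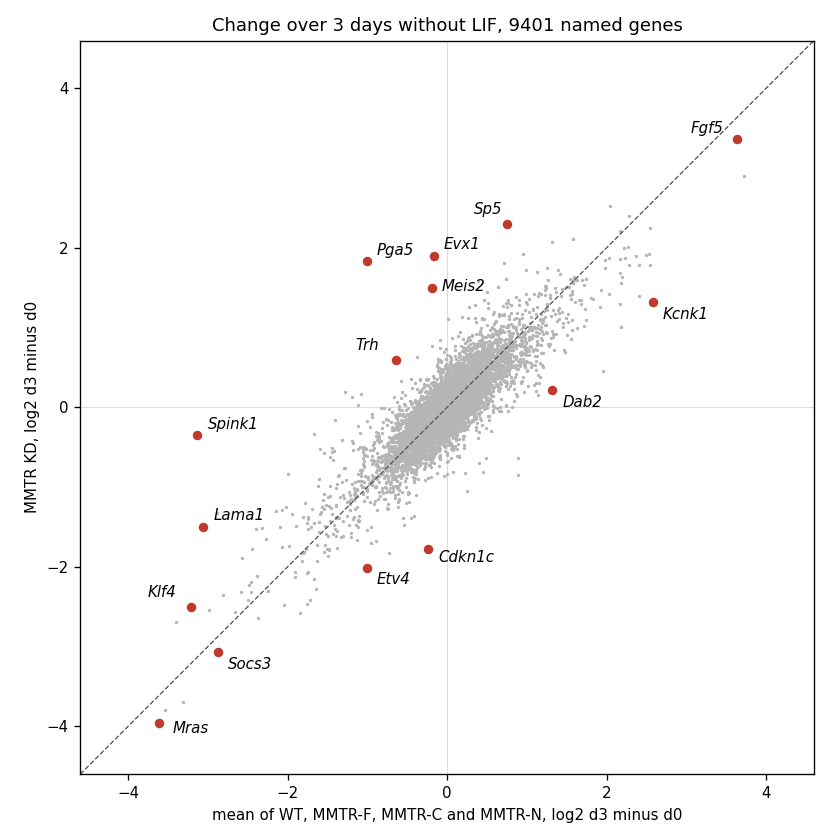
Log2 change, d3 minus d0, in MMTR KD (vertical axis, 1 difference) against the mean change in WT, MMTR-F, MMTR-C and MMTR-N (horizontal axis) for 9401 named genes, with the line of equal change dashed and genes described in the text in red. Most genes lie along the line, and Pga5 is at 1.83 in MMTR KD against -1.34 to -0.70 in the others.

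The genes below were chosen after their values were seen, as those farthest outside the range of the other lines. The exceptions are Pga5, Dab2, Evx1, Lama1, Igf2 and Etv4, which came from the rule for named genes. Some genes farther outside the range than Igf2, such as Gbp2 and Slc27a2, are not described. Pga5, a pepsinogen, was the only named gene that moved by 0.5 or more one way in MMTR KD and the opposite way in every other line. Detected on 6 arrays, the MMTR KD pair included, Pga5 passed the filter only with that pair, so no conclusion is drawn from its test. It was at 10.43 at d3 in MMTR KD, 1.83 above d0, whereas the other lines were at 8.05 to 8.27 at d3 and 8.75 to 9.61 at d0. At d3 it was not detected in any of the 4 other lines, so that their changes are bounds, at most -1.34 to -0.50, and the change in MMTR KD is above their mean by at least 2.74. As measured it exceeded their mean by 2.83 (SE 0.257), the smallest p of the test (limma, unadjusted 1.31e-05, adjusted 0.232). It was called (adjusted p of 0.0338 to 0.0412) with either background correction and with an intensity trend and robust prior.

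Evx1 and Meis2, homeobox factors of the streak and of later mesoderm and nervous system, were higher by 0.5 or more in MMTR KD and in no other line. Evx1 changed by 1.90 in MMTR KD against -0.74, 0.37, -0.78 and 0.49 in WT, MMTR-F, MMTR-C and MMTR-N, with a level at d0 of 8.78 in MMTR KD, inside the range of the others. Meis2 was at 10.09 at d3 and 8.59 at d0 in MMTR KD, while the others changed by -0.57 to 0.23. Its other probe changed by 0.36 in MMTR KD. The neuropeptide precursor Trh was higher by 0.59 in MMTR KD and changed by -0.90 to -0.42 in the others, and its d0 level of 13.28 in MMTR KD was below their 14.68 to 15.71. In limma these exceeded the mean of the other lines by 2.06 (SE 0.523) for Evx1, 1.69 (SE 0.281) for Meis2 and 1.23 (SE 0.203) for Trh, with adjusted p-values of 0.980, 0.961 and 0.961.

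Other genes were lower in every line but less so in MMTR KD. The laminin Lama1 was at 10.58 at d3 and 12.08 at d0 in MMTR KD, while in the others it was at 8.49 to 8.73 at d3 and 11.26 to 12.16 at d0. Its difference of 1.56 (SE 0.256) from the mean of the others had an adjusted p of 0.961 in limma. Spink1, a protease inhibitor, stayed at 10.48 at d3 and 10.83 at d0 in MMTR KD, against 8.30 to 8.43 at d3 and 10.20 to 12.46 at d0 in the others. Both thus kept a d3 level in MMTR KD above that of all other lines from a d0 level within theirs.

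Smaller increases than elsewhere were found in Dab2 and Kcnk1. Dab2, an endocytic adaptor that marks primitive endoderm, was at 10.96 at d3 and 10.74 at d0 in MMTR KD, against 9.65 to 10.05 at d3 and 8.43 to 8.70 at d0 in the others. It was the only named gene that changed by 1 or more in each other line and by less than 0.25 in MMTR KD, and its d0 level was already above the d3 level of the other lines. The other primitive endoderm marker that passed the filter, Sox7, changed by -0.86 in MMTR KD (0.34 by another probe) and was not detected at d3 in any other line, and Gata4, Gata6, Sox17 and Pdgfra were not measured here. Kcnk1, a potassium channel, was higher by 1.32 in MMTR KD and by 2.50 to 2.79 in the others, a difference of -1.26 (SE 0.159) with an adjusted p of 0.940 in limma. Its d3 level was 11.44 in MMTR KD against 11.58 to 12.26 in the others, and its d0 level 10.12 against 9.08 to 9.67. Igf2, the imprinted growth factor, changed by -0.82 in MMTR KD and by -0.08 to 0.59 in the others, with a d0 level of 11.23 in MMTR KD against 8.99 to 9.61. For Dab2, Kcnk1 and Igf2 the gap between MMTR KD and the nearest other line was thus wider at d0 than at d3. Etv4 changed by -2.01 in MMTR KD and by -1.31 to -0.83 in the others, with d0 levels of 11.44 in MMTR KD against 10.66 to 11.04.

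**Figure D4:**
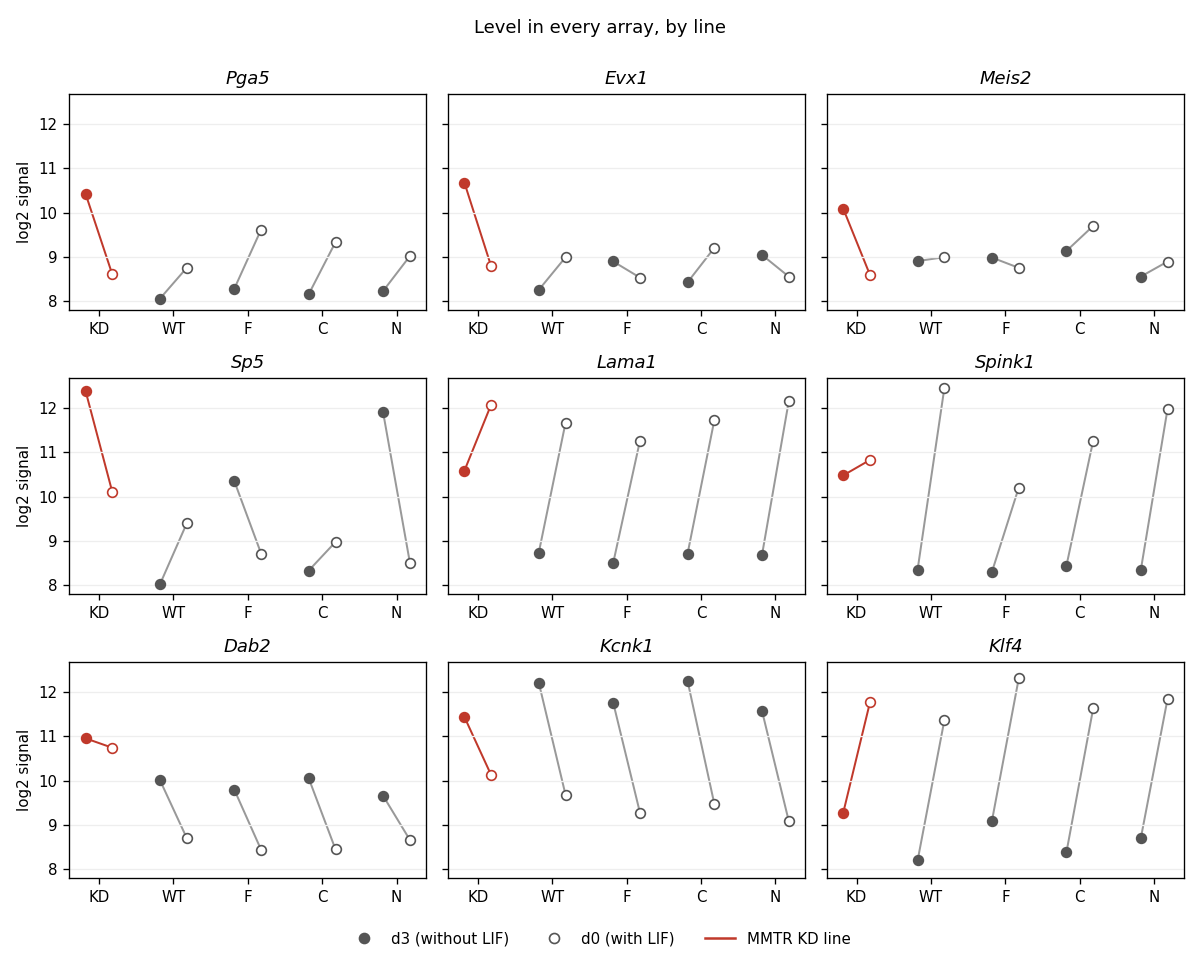
Log2 signal of 9 genes (vertical axis) on all 10 arrays, by line (KD, MMTR KD; WT; F, MMTR-F; C, MMTR-C; N, MMTR-N), d3 as filled and d0 as open circles joined within a line, MMTR KD in red. Pga5 reaches 10.43 at d3 in MMTR KD and is at 8.05 to 8.27 in the other lines, and Dab2 is already at 10.74 at d0 in MMTR KD.

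By chromosome, the median change of the MMTR KD line lay between -0.02 (chromosome 9) and 0.05 (chromosome 13), and the highest chromosome median in the other lines was 0.15 (chromosome 1 in WT). Other single chromosomes were not compared with WT, and chromosome 8 was examined because of a difference known from earlier work on these data. It set the line apart from WT on both days rather than in its change. The 528 named genes on it had a median of -0.33 in MMTR KD minus WT at d3 and -0.30 at d0, against 0.01 and 0.03 for genes elsewhere. Klf2, Kcnk1, Zfp42, Dusp4, Msmo1 and Mmp2 are on chromosome 8, and single genes differed widely around this median. Among these genes alone, MMTR KD minus WT ran from -1.13 (Dusp4) to 0.33 (Klf2) at d3. At d0 it ran from -1.15 (Msmo1) to 0.45 (Kcnk1). Col4a1, also on chromosome 8, lay outside both ranges. It was at 11.03 at d3 and 11.56 at d0 in MMTR KD, against 10.13 and 9.68 in WT.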

How the data were processed

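RNA of 5 G-CCE lines, at d3 and d0, was hybridised to 1 Illumina Mouse WG-6 v2 bead array per line and day. The authors deposited a bead summary intensity per probe and array, with no background correction, and a detection p-value against control beads (BeadStudio 3.2 and lumi in the submitters' processing notes). The authors also deposited log2 quantile-normalized values, used as an alternative, which differed by at most 0.127 from those computed here, although the series text names a background correction. The series text speaks of duplicates, but 1 column per line and day was analysed.

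Here probes with a detection p of up to 0.05 on at least 5 arrays were kept, log2 transformed and quantile normalized over all 10 arrays. Probes were named through the platform annotation by gene ID: 14281 of the 17775 had 1 gene (9401 genes), 3494 had no name, and 14267 IDs matched GRCm38.p6 genes. A gene was represented by its probe with the highest mean signal. A difference of 0.5 counted as a change, as in the methods. Differences of the 5 lines were compared with limma 3.58.1 (R 4.3.3) with Benjamini-Hochberg adjustment over all kept probes, checked on simulated data, where 6 unchanged probes were called. The number of arrays limits the precision.

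The members and 35 gene lists were chosen with earlier results of these data known. Named genes were Dmap1, the 15 largest increases and decreases detected on both MMTR KD arrays, the 5 largest bounds each way, genes opposite to or static against all other lines, and up to 6 genes of each list, with values outside this rule given where a sentence needed them. The motif search and the test of the 4 other lines were added after the data were seen. Normalization, background correction, filter, threshold, choice of probe, variance prior and lines left out were varied.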

Additional observations from a re-analysis of the deposited data

Results flagged for a closer look

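Pga5 was the only named gene, of 9401, that moved by 0.5 or more in MMTR KD and by 0.5 or more the opposite way in each of WT, MMTR-F, MMTR-C and MMTR-N. Its change in MMTR KD exceeded the mean change of the 4 other lines by 2.83 on the log2 scale (SE 0.257, limma, adjusted p of 0.232), a difference that did not pass the threshold as tested and passed it in 3 of the alternatives. Pga5 was not detected at d3 in the 4 other lines, so their changes are bounds, and with these the difference is at least 2.74. It rests on 1 probe and on 1 array each at d3 and d0, and the probe passed the filter only with the MMTR KD pair.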

How the results depend on the processing

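Against 1522 probes higher and 1424 lower by 0.5, normexp background correction gave 3135 and 2997 with offset 0 and 2485 and 2351 with offset 50. A threshold of 1 gave 278 and 310, and 1 probe a gene gave 995 and 858 of fewer features, as fewer were counted. Median scaling put 43.1% of the changed probes on the higher side, against 51.7%, and turned the chromosome median farthest from 0 to -0.0356 (chromosome 16), against 0.0451 (chromosome 13). The cause was not tested. The test of MMTR KD against the other lines called 1 probe (Pga5) with offset 0 and 1 with offset 50. It also called 1 with an intensity trend and robust prior, and 49 against WT and MMTR-C only. That last fit had 1 residual degree of freedom and a pairing not independent of the data, so no result is drawn from it. The test called 0 to 0 with each other line left out, and 0 in the other alternatives. The methods' one-tailed test gave 1892 probes at its unadjusted threshold and 0 after Benjamini-Hochberg adjustment, and the fit without moderation 980 unadjusted and 0 adjusted. No called value reversed its direction. Of 1587 values of named genes under an alternative, 141 moved by more than the spread between lines, and of 175 list medians 31 did, under background correction, median scaling or another choice of probe or bound. Every limma fit paired d3 with d0 within a line. No paired analysis was possible by replicate number, because the labels give none. Shifts of 0.5 between lines were not called in the simulated data, whose shares cannot be carried over to the arrays.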
